A study of Mus musculus with 4 samples.

Results

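Atf4 and 9 genes that act in its pathway were followed across 4 mouse heart libraries: Atf5, Ddit3, Trib3, Chac1, Asns, Psat1, Phgdh, Mthfd2 and Sesn2. They were taken by symbol, and all 10 were found among the 12408 genes that every library lists. The integrated stress response begins when a kinase phosphorylates the translation factor eIF2. Most protein synthesis then slows, while the mRNA of the transcription factor ATF4 is translated more. ATF4 activates genes for amino acid supply and for serine and folate metabolism, together with feedback inhibitors of the response. In heart muscle the response is known from mitochondrial disease, where serine and one-carbon enzymes are among its targets.

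Each library came from the heart of a single C57BL/6 mouse, 3 months old, and all 4 mice carried floxed copies of WW45, a Hippo pathway gene listed under its symbol Sav1. The cKO mice also carried Cre under the alpha-MHC promoter, which is active in cardiomyocytes. Their genotype is WW45 flox/flox-alpha-MHC-CRE. The CT mice carried no Cre. Of each genotype, 1 mouse was under transverse aortic constriction (TAC) for 4 weeks, which makes the heart pump against a narrowed aorta, and the other was at baseline conditions. The groups are therefore cKO TAC, cKO baseline, CT TAC and CT baseline, with 1 library in each. A ratio between 2 libraries compares those libraries, has no replicate check and carries no p-value. The labels name neither a Cre-only mouse nor a sham operation, so the deletion cannot be told apart from Cre, nor the load from the operation.

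The libraries held 1772153 recovered reads in cKO TAC, 1587840 in cKO baseline, 2064655 in CT TAC and 2796547 in CT baseline. Values are CPM, reads scaled to the size of the library, and intervals in brackets are 95% counting intervals, which leave out the variation between mice. None of the 10 cardiomyocyte markers was at 0 in any library. The deleted gene does not mark the cKO libraries clearly. The Sav1 level was 46.2 CPM in the library labelled cKO TAC, against 35.4 CPM in CT TAC. At baseline it had 39.8 CPM in cKO and 49.3 CPM in CT. The counting interval of the genotype ratio includes 1 in both states, from 0.941-fold to 1.81-fold under TAC and from 0.590-fold to 1.09-fold at baseline. Sav1 also overlaps other genes on the opposite strand, and no source used here names the deleted exons. Sav1 was thus lowest in the library labelled CT TAC, and the labels of both TAC libraries are in doubt. The names cKO TAC and CT TAC stand for the libraries so labelled. Every comparison that uses either of them, TAC over baseline included, rests on those labels, and cKO over CT at baseline uses neither. Sav1 does not settle the baseline labels either, since the baseline interval also includes 1.

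ATF4 binds with a C/EBP partner at a composite element whose core is TGATGNAA. This core was searched on both strands of the RefSeq promoter windows (GRCm38.p6, 250 bases before to 50 bases after a gene's start). All 10 genes matched a window by symbol, with 12 windows in all. The core was in 3 of the 12 windows, from 3 genes, beside 3.97% of all 32851 windows and 2.26% of the 12210 windows of listed genes. The 10 genes were listed as ATF4 pathway genes and targets, so these shares are no test of them. Of these 3 genes, Chac1 and Asns had log2 ratios of 1.70 and 1.958 between the libraries labelled cKO TAC and CT TAC, and Trib3 had 0.23. Sesn2 (1.21) and Ddit3 (0.97) held no core in the searched windows. Whether the core bears on these ratios was not tested. A match describes the letters and is not a shown binding site. Capitals mark the core, and each sequence is read 5′ to 3′ on the strand of its gene.
Chac1, chr2:119351023-119351082, plus strand, core on the other strand 193 bases before the start: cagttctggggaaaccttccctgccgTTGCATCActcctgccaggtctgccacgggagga
Asns, chr6:7693214-7693243, minus strand, core on the gene's strand 23 bases before the RefSeq start: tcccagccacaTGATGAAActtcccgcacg
Trib3, chr2:152344028-152344057, minus strand, core on the other strand from base 15 after the RefSeq start: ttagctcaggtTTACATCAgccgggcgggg
The Asns core lies inside the gene as GENCODE M21 draws it, since GENCODE places the start further upstream.

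Gene positions are those of GENCODE M21 on GRCm38, the mm10 assembly. Atf4 had 150 to 330 reads per library and Atf5 51 to 80, above the median gene, which had 30 to 48 reads per library. Each of the other 8 had 24 or fewer, under that median, and this sets how much their ratios can show. Per kilobase of annotated exon, Atf4 was highest in every library, at 50.3 CPM per kb in the library labelled cKO TAC, 49.3 in cKO baseline, 31.8 in CT TAC and 51.9 in CT baseline. Atf5 followed with 13.9 to 20.6 CPM per kb. Ddit3, Trib3, Chac1, Asns and Sesn2 lay between 1.01 and 5.40 CPM per kb, and Mthfd2, Psat1 and Phgdh between 0.176 and 1.65. The order among the lower 8 changed from library to library.

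**Figure D1:**
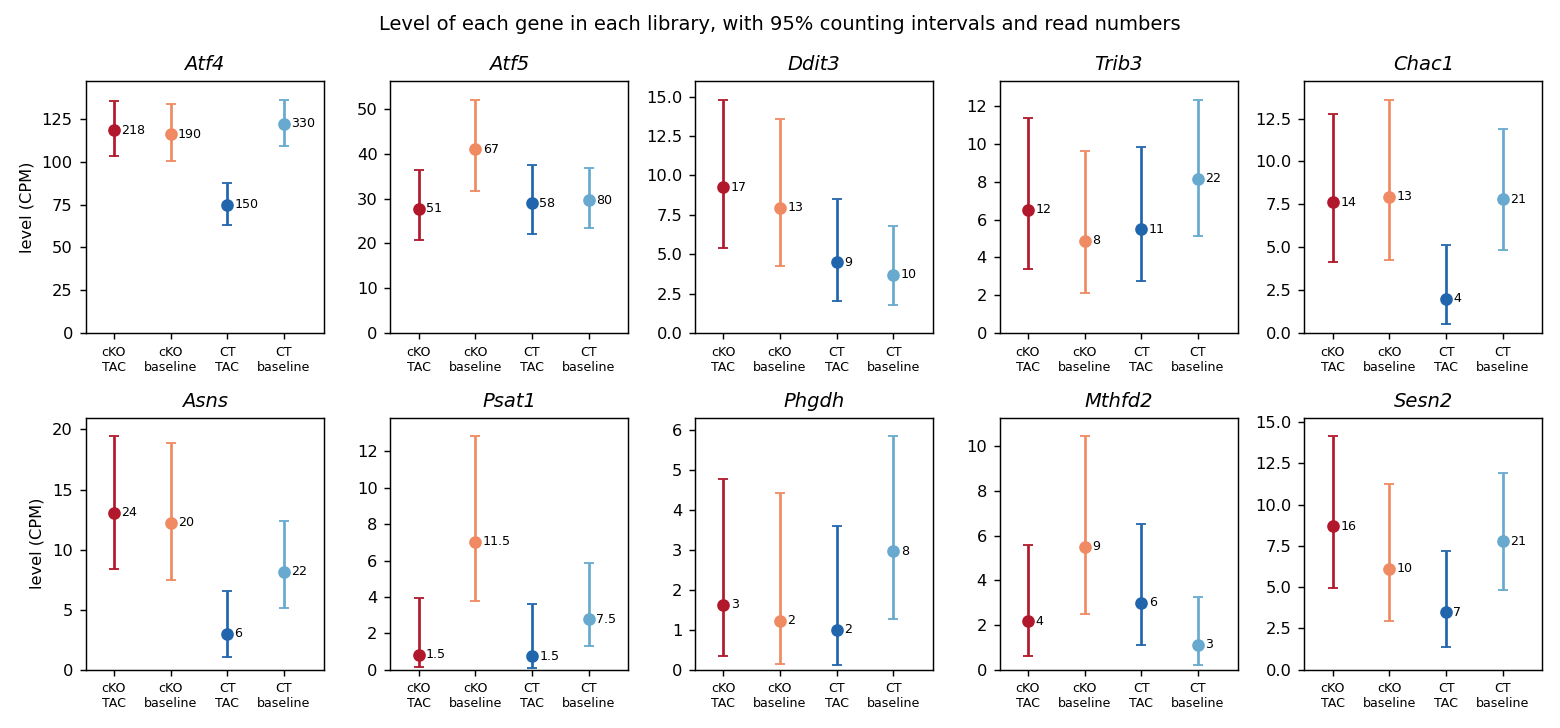
Level of each of the 10 genes in CPM (vertical axes, linear from 0) in the 4 libraries, 1 mouse each. Points are the level, bars the 95% counting interval and the numbers beside the points the reads. Atf4, Chac1, Asns and Sesn2 each have their lowest point in CT TAC, at 74.9, 1.997, 2.99 and 3.49 CPM.

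The library labelled CT TAC held the lowest level for 6 of the 10 genes (Atf4, Chac1, Asns, Psat1, Phgdh and Sesn2) and the highest for none, while over all 12408 genes it was lowest for 26.1% and highest for 25.98%. Psat1 had 1.5 reads in both TAC libraries, and Phgdh had 2 reads in both CT TAC and cKO baseline. Their place in CT TAC therefore rests on library scaling alone. The 10 genes were chosen with earlier results of these data known, so the share over all genes is no test of them. The levels of the 10 genes summed to 196 CPM in the library labelled cKO TAC, 210.1 in cKO baseline, 127 in CT TAC and 194 in CT baseline. Atf4 makes up most of each sum, and without it the sums were 77.5, 93.9, 52.2 and 72.1 CPM in the same order. In bulk heart, fewer cells that express a gene and less RNA per cell cannot be told apart.

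Atf4 lies at chr15:80255184-80257541 on the plus strand. The Atf4 level was 118.6 CPM (103 to 135) in the library labelled cKO TAC and 116 (100.3 to 134) in cKO baseline. It had 74.9 (63.4 to 87.9) in CT TAC and 122 (109 to 136) in CT baseline. The CT TAC interval lies below the other 3, which overlap one another. The log2 ratio of CT TAC to CT baseline was -0.70 (0.501-fold to 0.745-fold), and that of the library labelled cKO TAC to CT TAC was 0.66 (1.28-fold to 1.96-fold). Neither reached 2-fold. At baseline, cKO over CT gave -0.07 (0.791-fold to 1.14-fold), and scaling to total reads turned this to 0.02.

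Atf5 (chr7:44812256-44816658, minus strand), an ATF4 relative that is also translated more during stress and that induces mitochondrial chaperones, was at 27.7 CPM (20.7 to 36.5) in the library labelled cKO TAC and 41.0 (31.8 to 52.0) in cKO baseline. It had 28.95 (22.0 to 37.4) in CT TAC and 29.7 (23.5 to 36.9) in CT baseline. Its lowest library was cKO TAC by label, and its highest library was cKO baseline. The log2 ratio of the library labelled cKO TAC to cKO baseline was -0.56 (0.461-fold to 0.989-fold). For Atf5, cKO over CT gave 0.46 at baseline (0.984-fold to 1.94-fold) and -0.06 under TAC (0.644-fold to 1.42-fold), and scaling to total reads turned the second to 0.03. The gene overlaps Nup62 and Il4i1 on the opposite strand, and whether counting used strand is not given in the sources used here.

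Ddit3 (chr10:127290774-127296288, plus strand), which encodes the proapoptotic factor CHOP, was higher in both cKO libraries than in either CT library. Its level was 9.25 CPM (5.39 to 14.8) in the library labelled cKO TAC and 7.95 (4.23 to 13.6) in cKO baseline, against 4.49 (2.05 to 8.53) in CT TAC and 3.71 (1.78 to 6.82) in CT baseline. These are 17, 13, 9 and 10 reads. Over CT, cKO was at 1.01 on the log2 scale (0.869-fold to 5.47-fold) at baseline and 0.97 (0.868-fold to 5.24-fold) under TAC. Both intervals include 1, so neither pair alone separates the genotypes at this depth. Ddit3 has 2 annotated entries that overlap over 2925 bases on the same strand, so its reads could be split or lost in counting. It also overlaps Mars over 68 bases and Gm4189 over 15 bases on the opposite strand.

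Trib3, Chac1 and Sesn2 differed among themselves. Chac1 (chr2:119351229-119354381, plus strand), an enzyme that degrades glutathione, was at 7.61 CPM (4.16 to 12.8) in the library labelled cKO TAC, 7.95 (4.23 to 13.6) in cKO baseline, 1.997 (0.544 to 5.11) in CT TAC and 7.78 (4.82 to 11.9) in CT baseline. These were 14, 13, 4 and 21 reads, so CT TAC alone was low. The log2 ratio of the library labelled cKO TAC to CT TAC was 1.70 (1.198-fold to 15.9-fold), and that of CT TAC to CT baseline was -1.73 (0.0640-fold to 0.760-fold). At baseline, cKO over CT gave 0.03 (0.470-fold to 2.14-fold).

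Sesn2 (chr4:132492032-132510501, minus strand), a stress-induced inhibitor of mTORC1 that also senses leucine, also had its lowest level in CT TAC. It had 16 reads in the library labelled cKO TAC, 10 in cKO baseline, 7 in CT TAC and 21 in CT baseline. Its log2 ratio was 1.21 between the library labelled cKO TAC and CT TAC (0.969-fold to 7.16-fold) and -1.05 between CT TAC and CT baseline (0.161-fold to 1.10-fold). Both intervals include 1, and with libraries scaled to total reads the first did exclude 1, at a log2 ratio of 1.295. At baseline, cKO over CT had the opposite sign, at -0.32 (0.330-fold to 1.74-fold). Trib3 (chr2:152337422-152344032, minus strand), a pseudokinase that binds ATF4 and dampens it, was lowest in cKO baseline. It had 12, 8, 11 and 22 reads in the library labelled cKO TAC, cKO baseline, CT TAC and CT baseline, and the intervals of all 4 of its ratios include 1, with cKO over CT at 0.23 under TAC and -0.68 at baseline. Sesn2 shares its strand and locus with Gm12981, so reads of the pair could be split or lost in counting.

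Asns (chr6:7675169-7693254, minus strand), the asparagine synthetase gene and a direct ATF4 target, had the largest ratio of the 10 genes between the TAC libraries. Its level was 13.05 CPM (8.36 to 19.4) in the library labelled cKO TAC, 12.2 (7.47 to 18.9) in cKO baseline, 2.99 (1.10 to 6.52) in CT TAC and 8.15 (5.11 to 12.3) in CT baseline. The reads were 24, 20, 6 and 22. CT TAC lies below both cKO libraries without overlap of intervals. The log2 ratio of the library labelled cKO TAC to CT TAC was 1.958 (1.74-fold to 13.03-fold), and of CT TAC to CT baseline -1.31 (0.122-fold to 0.934-fold). At baseline, cKO over CT gave 0.56 (0.777-fold to 2.88-fold), an interval that includes 1.

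The 3 serine and folate enzymes had the fewest reads in all, and each had its own order of libraries. Phgdh (chr3:98313170-98339990, minus strand), the first enzyme of serine synthesis from glycolysis, had 3 reads in the library labelled cKO TAC, 2 in cKO baseline, 2 in CT TAC and 8 in CT baseline. No ratio of Phgdh could be told from 1. Psat1 (chr19:15904678-15947337, minus strand), the next enzyme, was at 0.82 CPM in the library labelled cKO TAC, 7.03 (3.79 to 12.8) in cKO baseline, 0.75 in CT TAC and 2.78 (1.28 to 5.84) in CT baseline. Psat1 was thus lower in both TAC libraries, with 1.5 reads in each, than in cKO baseline with 11.5 and CT baseline with 7.5.

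The log2 ratio of Psat1 between the library labelled cKO TAC and cKO baseline was -2.53 (0.0161-fold to 0.666-fold), and between CT TAC and CT baseline -1.40 (0.0348-fold to 1.69-fold). Between the genotypes it was 1.202 at baseline (0.930-fold to 6.98-fold) and 0.08 under TAC (0.0790-fold to 15.0-fold). The recovered Psat1 reads were not whole numbers, and a processed pseudogene overlaps the gene, so these values are uncertain. It exceeded 1 CPM in the 2 baseline libraries only, and every listed gene does so in at least 2 libraries. Its presence in the files therefore rests on the groups where it is high. Mthfd2 (chr6:83305691-83325908, minus strand), the mitochondrial folate enzyme that is a common marker of the response and that overlaps Gm43890 on its own strand, had 4 reads in the library labelled cKO TAC, 9 in cKO baseline, 6 in CT TAC and 3 in CT baseline. For Mthfd2, cKO over CT gave 1.90 at baseline (1.24-fold to 28.4-fold) and -0.39 under TAC (0.151-fold to 3.06-fold).

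**Figure D2:**
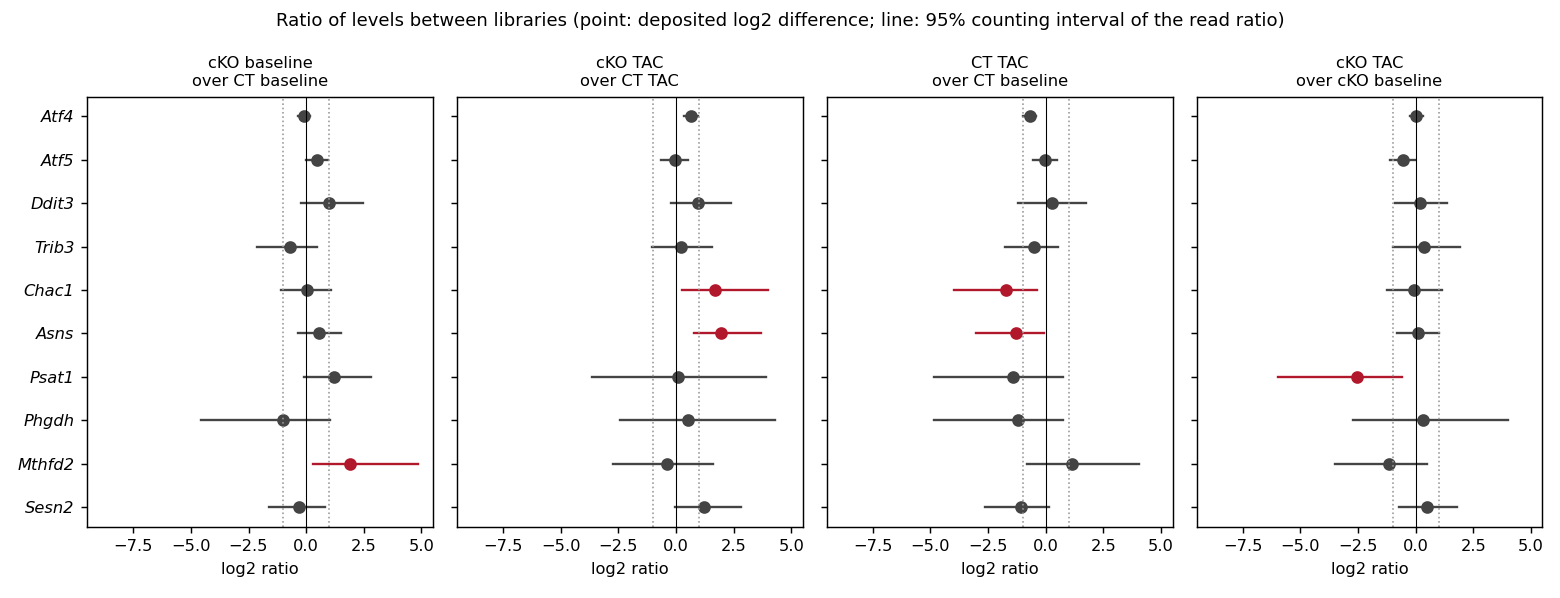
Log2 ratio of each gene in the 4 comparisons of libraries (horizontal axes). Points are differences of the deposited log2 values, lines the 95% counting intervals of the read ratio, dotted lines mark 2-fold, and red marks genes at least 2-fold apart with an interval that excludes 1. Chac1 and Asns are red in both comparisons that include CT TAC, Mthfd2 in cKO over CT at baseline and Psat1 in the library labelled cKO TAC over cKO baseline.

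By the rule of at least 2-fold with an interval that excludes 1, 2 of 10 members were higher in the library labelled cKO TAC than in CT TAC (Asns and Chac1), while 2.93% of all genes were higher and 2.08% lower by that rule. No member was lower. The median log2 ratio of the members was 0.59, against 0.01 over all genes. At baseline, 1 of 10 was higher in cKO than in CT (Mthfd2), beside 3.26% of all genes higher and 1.79% lower, with a members' median of 0.24. In CT TAC relative to CT baseline, 2 of 10 were lower (Chac1 and Asns), beside 6.06% of all genes higher and 4.68% lower, with a median of -0.88 and 8 of 10 ratios below 0. In the library labelled cKO TAC relative to cKO baseline, 1 of 10 was lower (Psat1), beside 3.69% of all genes higher and 2.84% lower, with a median of 0.06. Comparisons that share a library are not independent, and both counts of 2 rest on the single library labelled CT TAC. The members were also chosen with earlier results of these data known, so the shares over all genes are no test of these counts. A mean of at least 5 CPM was reached by 7 of the 10, all but Psat1, Phgdh and Mthfd2. For cKO over CT at baseline, 0 of those 7 passed, with a median of 0.03. Of all 9798 genes at that mean, 297 were higher and 189 lower there, with a median of -0.01. Under TAC, 2 of the 7 were higher, with a median of 0.97. Of the 9798 genes, 288 were higher and 221 lower under TAC, with a median of -0.01.

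Markers of other cell types also differed between these libraries. Fibroblast markers summed to 9404 CPM in the library labelled cKO TAC, 5547 in cKO baseline, 8068 in CT TAC and 3967 in CT baseline, with 10 of 10 markers measured. Erythroid markers (3 of 5 measured) were lowest in CT TAC, with 2240.06 CPM in the library labelled cKO TAC, 1565 in cKO baseline, 737 in CT TAC and 1092 in CT baseline. Macrophage markers summed to 975.4, 1036, 751 and 470.2 CPM in the same order, and none of the 12 was at 0. Endothelial markers ranged from 1869.7 to 2254 CPM over the libraries and mural markers from 516 to 983. Of the 6 mural markers, 1 passed as higher in cKO than in CT at baseline, beside 3.26% of all genes. Their ratios there were above 0 for 3 and below 0 for 3. Lymphocyte markers (3 of 9 measured) summed to at most 17.7 CPM and neutrophil markers (4 of 5 measured) to at most 26.9, with up to 2 and 1 of them at 0 in a library. Cardiomyocyte markers summed to 101416 CPM in the library labelled cKO TAC, 115896 in cKO baseline, 127457 in CT TAC and 134088 in CT baseline. The part of these cell types in the members' values was not tested.

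All 12408 genes were fitted with limma over the 4 libraries, using a trend of variance on level and additive terms for genotype and TAC and 1 residual degree of freedom. That residual is the difference of the genotype ratio between TAC and baseline, so it does not measure spread between mice. For genotype limma called 3 genes (0.0242% of all, each higher in cKO), and no member among them. Of the members, 2 of 10 had an unadjusted p under 0.05, Asns and Ddit3, as had 7.77% of all genes. Asns differed by 1.26 (log2, cKO minus CT, SE 0.45, limma adjusted p = 0.55) and Ddit3 by 0.99 (SE 0.44, limma adjusted p = 0.639), and both were higher in cKO in 2 of 2 states. For Atf4 the difference was 0.29 (95% interval -0.19 to 0.78, limma adjusted p = 0.821), which does not show that the genotypes were alike.

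For TAC limma called 226 genes (1.82% of all), again with no member among them and 1 of 10 members at an unadjusted p under 0.05, beside 16.2% of all genes. This was Psat1, with a difference of -1.964 (log2, TAC minus baseline, SE 0.62, limma adjusted p = 0.155), lower under TAC in 2 of 2 genotypes. Psat1 is listed only through the baseline libraries, where it exceeded 1 CPM, so its lower value under TAC cannot be told apart from the rule of listing. Chac1 was at -0.90 (95% interval -2.02 to 0.22) and Asns at -0.61 (-1.60 to 0.38). The intervals of the other 9 members include 0. The fit averages the load response over both genotypes, while the sign of TAC over baseline differed between the genotypes for 6 members, a difference that was not tested.

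**Figure D3:**
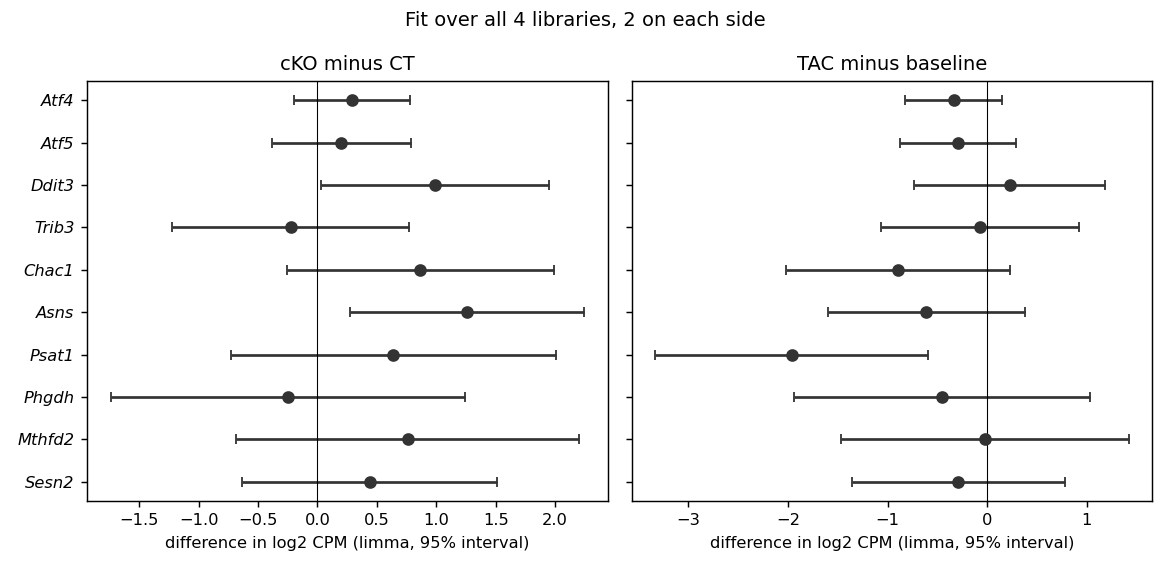
Differences in log2 CPM from limma over all 4 libraries (points) with 95% intervals (lines), cKO minus CT on the left and TAC minus baseline on the right. Asns (1.26) and Ddit3 (0.99) lie above 0 for genotype and Psat1 (-1.964) below 0 for TAC, and no member passes after adjustment over all genes.

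The difference between the genotype ratio under TAC and that at baseline had no residual to test it, and only counting error can be given. For Atf4 it was 0.73 on the log2 scale (0.34 to 1.13), and for Mthfd2 -2.57 (-5.05 to -0.09). Those 2 intervals exclude 0. Chac1 (1.76, -0.05 to 3.57), Asns (1.45, -0.07 to 2.97) and Sesn2 (1.57, -0.07 to 3.21) had differences above 0, as Atf4 did, with intervals that just include 0. Under the same calculation Sav1, the gene behind the labels, was at 0.69 (0.06 to 1.31).

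Upstream of ATF4, the eIF2 kinases, the phosphatase subunits that counter them, eIF2, its exchange factor and the mitochondrial relay protease Oma1 make up a list of 15 genes, and none passed in any of the 4 comparisons. Their ratios ran from -0.86 to 0.32 (log2) for cKO over CT at baseline and from -0.78 to 0.78 for CT TAC over CT baseline. Limma called none of the 15 for genotype or TAC, with 0 and 2 at an unadjusted p under 0.05, where 7.77% and 16.2% of all genes lie for these 2 factors. Of the 14 cytosolic transfer RNA synthetase and export genes that ATF4 can activate, none passed in any comparison, and limma called none, with 0 and 3 at an unadjusted p under 0.05. The 8 mitochondrial chaperones and proteases passed in no comparison either, with a median log2 ratio of -0.33 in CT TAC over CT baseline. Limma called none of the 8, with 1 and 3 at an unadjusted p under 0.05.

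Further ATF4-linked stress genes went in both directions. Of 17 measured, 2 were higher and 4 lower in CT TAC than in CT baseline, beside 6.06% of all genes higher and 4.68% lower. Lower were Atf3, an early stress transcription factor (-2.52, 1 read against 14, 0.00227-fold to 0.632-fold), Cebpb, a partner of ATF4 (-2.23), and Herpud1, a factor of protein degradation at the endoplasmic reticulum (-1.91, 189 reads against 959). Gdf15, a secreted stress hormone, was higher (2.07, 25 reads against 7). For genotype limma called none of the 17, with 4 at an unadjusted p under 0.05, beside 7.77% of all genes. Limma called 2 of the 17 for TAC, beside 1.82% of all genes, and 4 had an unadjusted p under 0.05, beside 16.2%. Herpud1 fell by 1.44 (log2, SE 0.23, limma adjusted p = 0.0112), lower in 2 of 2 genotypes, and the stress protein gene Nupr1 rose by 2.13 (SE 0.38, limma adjusted p = 0.0202), higher in 2 of 2. Both calls were lost without the variance trend (limma adjusted p = 0.339 for Herpud1 and 0.297 for Nupr1), without a genotype term (0.0877 and 0.0837), and without both that term and the library labelled cKO TAC (0.061 and 0.157).

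Between the genotypes at baseline, 1 of the 17 was higher in cKO (Gdf15, 3.27, 48 reads against 7) and 2 were lower, beside 3.26% of all genes higher and 1.79% lower. The 2 lower genes were Ddit4, an mTORC1 inhibitor (-1.51, 71 reads against 337), and Cebpb (-1.25, 34 reads against 135). In the library labelled cKO TAC relative to CT TAC, Gdf15 (1.04) and Cebpb (1.51) were higher and Gpt2, an alanine aminotransferase, was lower (-1.06, and -0.97 with scaling to total reads, which is under 2-fold). At baseline Gpt2 was at -0.50, with an interval that includes 1. The level of Cebpb was 30.3 CPM in the library labelled cKO TAC, 20.8 in cKO baseline, 10.3 in CT TAC and 50.04 in CT baseline. Its recovered reads in the TAC libraries were not whole numbers, so those values are uncertain. In the library labelled cKO TAC relative to cKO baseline, Nupr1 (2.36) and Ddit4 (1.03) were higher, and Aldh1l2, a mitochondrial folate enzyme (-2.38, 1 read against 8), and Gpt2 (-1.59) were lower.

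Of 14 other serine, glycine and folate enzymes measured, 4 were higher in CT TAC than in CT baseline and none was lower, beside 6.06% of all genes higher and 4.68% lower. The median log2 ratio of the 14 was 0.47, where the members' median was -0.88. The 4 higher were Mthfd1l (2.12, 13 reads against 3), Psph, the last enzyme of serine synthesis (1.86, 8 reads against 2, 1.07-fold to 52.1-fold), Aldh1l1 (1.54) and the cytosolic enzyme Shmt1, which interconverts serine and glycine (1.04, 96 reads against 62). Psph was also higher in cKO than in CT at baseline (1.95, 7 reads against 2), and none of the 14 passed under TAC between the genotypes. Mthfd1l had 9 reads in the library labelled cKO TAC and 0 in cKO baseline, at least 2.67-fold higher with 3 reads per library as the floor. These are mostly genes of few reads: of the 6 enzymes with a mean of at least 5 CPM, 1 was higher in CT TAC than in CT baseline, and their median was -0.18. Limma called none of the 14, with 0 at an unadjusted p under 0.05 for genotype and 3 for TAC, beside 7.77% and 16.2% of all genes.

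Of the 7 amino acid transporters measured, Slc1a5, which carries glutamine and other neutral amino acids, was higher in CT TAC than in CT baseline (1.54 on the log2 scale, 121 reads against 55), and no other passed in any comparison with the deposited scaling. Slc1a5 rose with TAC in limma (1.26, SE 0.25, limma adjusted p = 0.0362), higher in 2 of 2 genotypes, as the 1 transporter of 7 called, beside 1.82% of all genes. This call was lost with 0.5 reads added (limma adjusted p = 0.0554), without the trend (0.335), without a genotype term (0.119), and without both that term and the library labelled cKO TAC (0.124). For genotype limma called no transporter, with 1 at an unadjusted p under 0.05, beside 7.77% of all genes.

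The unfolded protein response of the endoplasmic reticulum was followed through its chaperones, its regulators Xbp1, Atf6 and Ern1, and the degradation factors Edem1 and Sel1l, which passed in no comparison, nor did the regulators. Of 17 genes measured, 7 were higher in cKO than in CT at baseline and none was lower, beside 3.26% of all genes higher and 1.79% lower. The median log2 ratio of the 17 was 0.82. Among the 7 were Sdf2l1 (2.64), Manf (1.89), Pdia4 (1.63) and Pdia6 (1.54). In the library labelled cKO TAC relative to cKO baseline, 9 were lower and none higher, beside 3.69% of all genes higher and 2.84% lower. The median of the 17 was -1.20, and the 9 were led by Hyou1 (-2.28), Manf (-2.27), Pdia4 (-2.26) and Sdf2l1 (-2.18). Between these same 2 cKO libraries the 10 members had a median log2 ratio of 0.06, with 6 ratios above 0 and 4 below, and Psat1 passed as lower (-2.53). The counts of 7 and 9 both rest on the single cKO baseline library and are not independent. Between the library labelled cKO TAC and CT TAC 2 of the 17 were lower, beside 2.93% of all genes higher and 2.08% lower. The 2 were Pdia4 (-1.13) and Calr (-1.002, and -0.91 with scaling to total reads), although Calr was at 0.82 for cKO over CT at baseline. In CT TAC relative to CT baseline only Pdia6 passed (1.01), beside 6.06% of all genes higher and 4.68% lower. Limma called none of the 17 for either factor, with 2 at an unadjusted p under 0.05 for genotype and 6 for TAC, beside 7.77% and 16.2% of all genes.

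**Figure D4:**
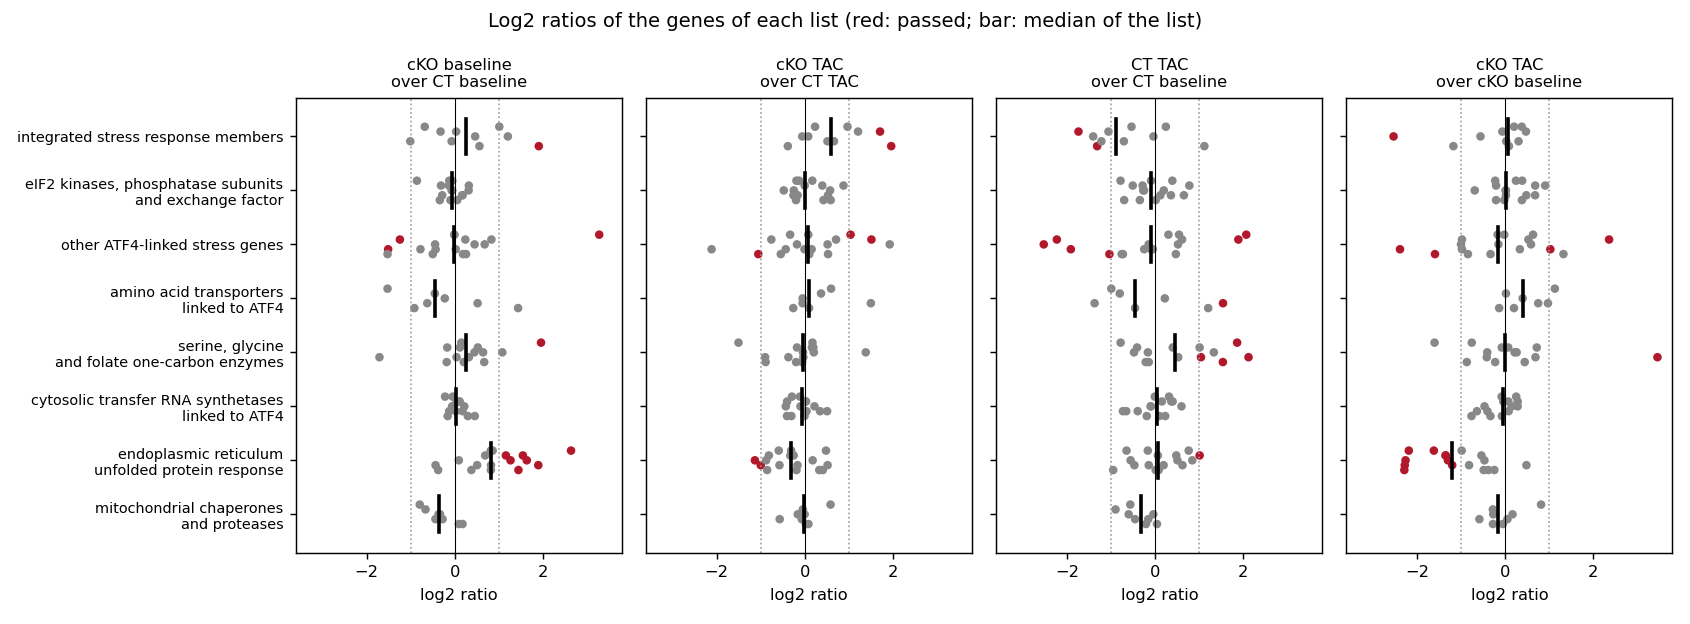
Log2 ratios of the genes in each list (points) for the 4 comparisons of libraries, with the median of the list as a black bar, dotted lines at 2-fold and red for genes that passed. The members have a median of -0.88 in CT TAC over CT baseline, where serine and folate enzymes have 0.47. The unfolded protein response list has 0.82 in cKO over CT at baseline and -1.20 in the library labelled cKO TAC over cKO baseline. The last 2 medians share the single cKO baseline library.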

How the data were processed

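Total RNA of hearts was sequenced, per the labels' protocols. CASAVA, HISAT2, edgeR and mm10 appear in the submitters' processing notes, without versions, roles or settings. The sources used here give no counter, annotation or gene filter. The unit, log2 CPM, was inferred from the deposited values, since the file headers name only the library. Taken out of the logarithm, the values form a grid that shows about 1 read added before the logarithm and scaled library sizes. Reads recovered from that grid were whole within 0.01 for 88.6% to 89.0% of genes per library. For 2449 genes, Psat1 alone of the members, parts of reads were found and were rounded for intervals. Log2 ratios are differences of deposited values and understate ratios of genes with few reads.

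Clopper-Pearson 95% intervals of read ratios, Poisson intervals of levels and a normal approximation with 0.5 added reads for the difference of ratios were computed in Python 3.11.15 (scipy 1.17.1). They cover counting error only, and PCR copies are not independent molecules. Limma 3.58.1 (R 4.3.3) used 2 libraries per side, and its p-values lean on the variance of other genes (prior degrees of freedom 10.1, residual 1). The limma fit and the intervals of read ratios were tested on simulated data. The intervals of levels and of the difference of ratios were not. Every pair of libraries differed beyond sampling noise, with chi-square values of 7.66 to 21.0 times their degrees of freedom. Exon lengths and positions are from GENCODE M21 (GRCm38, the same assembly as mm10) and promoters from RefSeq (GRCm38.p6).

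Members and lists were chosen with earlier results of these data known. All 10 members are named with their values. From other lists the text names genes that limma called and, per comparison, at most the 4 furthest apart among those that passed. Alternatives were scaling to total reads, 0.5 added reads, a mean of at least 5 CPM, a 1.5-fold threshold, limma without its trend, without the other factor, and without both the other factor and cKO TAC.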

Additional observations from a re-analysis of the deposited data

Results flagged for a closer look

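For 7 members and Sav1 the log2 ratio of cKO to CT under TAC, or that of TAC to baseline in cKO, had the opposite sign to its counterpart. The differences between genotype ratios, TAC minus baseline on the log2 scale, were not tested, since each group is 1 mouse. They were 0.73 for Atf4, -0.53 for Atf5 (-1.24 to 0.19), 0.93 for Trib3 (-0.70 to 2.55), 1.45 for Asns, 1.65 for Phgdh (-1.45 to 4.75), -2.57 for Mthfd2, 1.57 for Sesn2 and 0.69 for Sav1. By counting error alone the intervals of Atf4, Mthfd2 and Sav1 exclude 0.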

How the results depend on the processing

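With 1 mouse per group, spread between mice was not measured, and 8 members had 24 reads or fewer, so the counting intervals of most of their ratios span several-fold. No paired analysis was possible because the labels carry no replicate numbers. Over the 4 comparisons of libraries, no member changed its pass status with 0.5 reads added (40 values), nor did any of the 7 left at a mean of at least 5 CPM (28 values), and 1 did with scaling to total reads (40 values): Sesn2, which then passed in the library labelled cKO TAC over CT TAC at 1.295. That scaling split the genes of this comparison into 478 higher and 185 lower, against 363 and 258. At 1.5-fold the genes that passed numbered 1336 for cKO over CT at baseline, 1497 under TAC, 2636 for TAC in CT and 1744 for TAC in cKO, and Atf4 then passed too under TAC between the genotypes and for TAC in CT (3 members each, against 2). For genotype limma called 9 genes at a mean of at least 5 CPM, 0 without the trend, 0 without a TAC term and 0 without that term and without the library labelled cKO TAC. For TAC it called 132 with 0.5 reads added, 0 without the trend, 20 without a genotype term and 59 without that term and without the library labelled cKO TAC. No member was called under any of these (lowest adjusted p 0.474 for genotype and 0.17 for TAC, limma). The TAC difference of Mthfd2 turned to 0.0036 with 0.5 reads added and to 0.17 without both the library labelled cKO TAC and the genotype term, and that of Ddit3 to -0.26 without both. Leaving out that library alone leaves no residual degree of freedom. Of 32 ratios named from the other lists, scaling to total reads took 2 under 2-fold (Gpt2 and Calr between the TAC libraries). The cause was not tested.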
